A study of Mus musculus with 65 samples.

Results

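SYCP3 peaks of testes without PRDM9 were set against SYCP3 peaks of the wild type, by position alone. The Prdm9KO list held 607 peaks and the wild-type list 1911, out of 97260 intervals in the 24 peak lists of the series used here. A peak was shared where it overlapped a peak of the other list by at least 1 bp. This gave 1671 wild-type-only peaks, 378 knockout-only peaks, and a shared class of 240 wild-type intervals that met 229 Prdm9KO intervals. Of the wild-type peaks 12.6% were found in Prdm9KO, and of the Prdm9KO peaks 37.7% were found in the wild type. The wild-type group (C57BL/6JCrl) has 2 samples with 1 deposited list, and the Prdm9KO group (allele B6;129P2-Prdm9tm1Ymat/J, listed under the same C57BL/6JCrl line) has 1 sample with 1 list. All mice were males whose first wave of meiosis was synchronised. Pups were fed WIN 18,466 (a retinoic acid inhibitor) from 1.5 days after birth for 7 to 10 days, then injected once with retinoic acid, and whole testes were taken 8 days later, when leptotene and zygotene spermatocytes made up 80 to 95% of the cells by the labels. The other groups used here were the HORMAD1, IHO1 and MEI4 lists of the wild type and Prdm9KO, CTCF and DMC1 of the wild type, DMC1 of Hormad1KO (Hormad1tm1.2Atot), and SYCP3 in Spo11KO (Spo11tm1Mjn), Mei4KO (Mei4tm1Bdm), Iho1KO (Iho1tm1.2Atot) and Hormad1KO, all synchronised in the same way. The submitters state that the signal of SYCP3 precipitated from Sycp3KO (Sycp3tm1Hoog) was subtracted from the SYCP3 data, so the 6 SYCP3 lists share that control.

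SYCP3 is a filament-forming protein of the meiotic chromosome axis, the protein core to which chromatin loops are attached before homologous chromosomes pair. PRDM9 is a zinc-finger histone methyltransferase that chooses the sites of meiotic DNA breaks in mice, and in its absence breaks form at other accessible sites, largely promoters. HORMAD1 is an axis protein needed for normal break formation, IHO1 and MEI4 are partners of the break enzyme SPO11, DMC1 is the recombinase that loads on broken DNA, and CTCF is an insulator protein that anchors chromatin loops.

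The 3 classes lay at different kinds of site. Of the wild-type-only peaks, 67.7% (Wilson 95% interval 65.4 to 69.9; 1131 of 1671) overlapped a wild-type DMC1 hotspot. Of the knockout-only peaks, 58.2% (53.2 to 63.1, 220 of 378) lay within 1 kb of the start of a protein-coding gene. A high share at gene starts was not particular to Prdm9KO. Over whole SYCP3 lists it was 40.0% in Prdm9KO, 42.8% in Spo11KO, 46.9% in Mei4KO and 56.5% in Iho1KO. In Hormad1KO it was 10.9% and in the wild type 4.92%. The shared peaks were at neither hotspots nor gene starts as a rule. In Prdm9KO intervals, 48.5% of them (42.1 to 54.9; 111 of 229) lay at a wild-type CTCF peak, 73.8% (67.7 to 79.1) at a HORMAD1 peak of Prdm9KO and 54.1% (47.7 to 60.5) at an IHO1 peak of Prdm9KO. There was 1 list per group, so no difference has a replicate check and no p-value is given. Wilson intervals of shares and Newcombe intervals of differences hold counting error alone, as if each peak were drawn on its own. A difference was called where its Newcombe 95% interval excluded 0, and 23 of 26 differences between classes were called, a background of 88.5%. Sequencing depth and the peak thresholds are not known, and a peak absent from a list is not a site shown to be unbound.

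**Figure D1:**
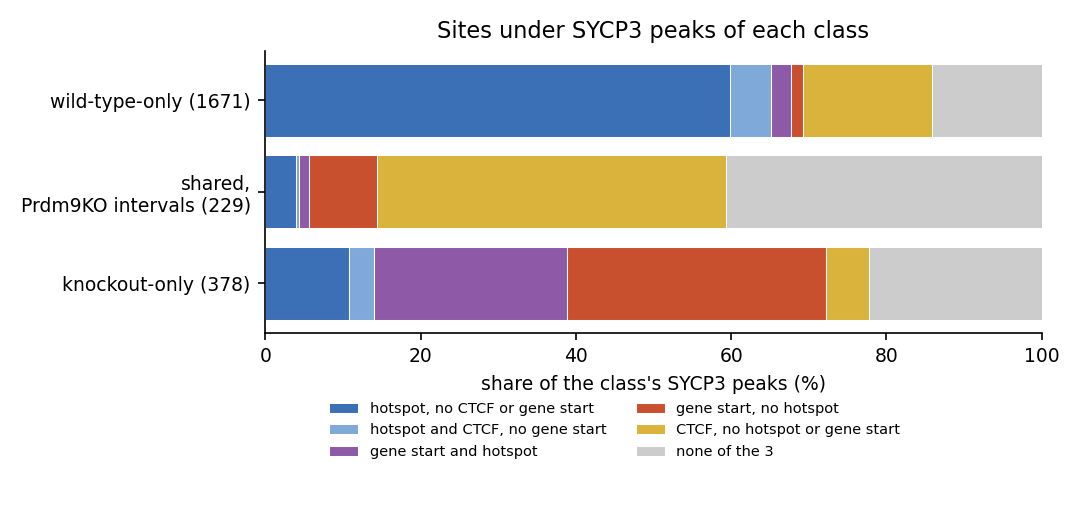
Share of each class's SYCP3 peaks (horizontal axis, %) by the sites they overlap: wild-type DMC1 hotspots, wild-type CTCF peaks and gene starts with 1 kb to each side. Hotspots without a gene start or CTCF peak fill 59.8% of the wild-type-only class, CTCF peaks alone 45.0% of the shared class, and gene starts with or without a hotspot 24.9% and 33.3% of the knockout-only class.

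Because gene starts carry the result of the knockout-only class, promoters at its peaks are shown first. They are the 250 bases before the start, taken from RefSeq on GRCm38.p6, the assembly behind mm10, written 5′ to 3′ on the gene's strand with CpG in capitals. The first 4 belong to gene starts within 1 kb of the highest-ranked knockout-only peaks with a usable promoter. Peaks were ranked by how many of 7 lists hold them, the SYCP3 lists of the other 4 knockouts and the HORMAD1, IHO1 and MEI4 lists of Prdm9KO, with ties broken by width. The H4c17 promoter lies wholly outside its peak, and the other 3 lie inside theirs. Rsad1 encodes a radical SAM protein, H4c2 and H4c17 encode histone H4, and Slc6a20a encodes an amino acid transporter.
Rsad1, chr11:94549208-94549457, minus strand: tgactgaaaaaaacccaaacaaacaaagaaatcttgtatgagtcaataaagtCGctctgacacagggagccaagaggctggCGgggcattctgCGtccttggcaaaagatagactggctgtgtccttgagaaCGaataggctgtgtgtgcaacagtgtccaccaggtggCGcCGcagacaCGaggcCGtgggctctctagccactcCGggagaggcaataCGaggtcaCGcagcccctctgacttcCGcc
H4c2, chr13:23756687-23756936, plus strand: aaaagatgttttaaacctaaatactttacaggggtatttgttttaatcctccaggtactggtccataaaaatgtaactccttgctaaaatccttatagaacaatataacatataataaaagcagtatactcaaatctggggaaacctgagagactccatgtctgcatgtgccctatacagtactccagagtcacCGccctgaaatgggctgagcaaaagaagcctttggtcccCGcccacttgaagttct
H4c17, chr13:21811496-21811745, plus strand: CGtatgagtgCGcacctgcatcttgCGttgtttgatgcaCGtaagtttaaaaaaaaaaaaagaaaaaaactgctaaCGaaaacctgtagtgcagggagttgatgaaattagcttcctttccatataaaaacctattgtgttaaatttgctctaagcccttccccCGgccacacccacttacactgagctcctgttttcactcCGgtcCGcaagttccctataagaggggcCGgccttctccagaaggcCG
Slc6a20a, chr9:123678833-123679082, minus strand: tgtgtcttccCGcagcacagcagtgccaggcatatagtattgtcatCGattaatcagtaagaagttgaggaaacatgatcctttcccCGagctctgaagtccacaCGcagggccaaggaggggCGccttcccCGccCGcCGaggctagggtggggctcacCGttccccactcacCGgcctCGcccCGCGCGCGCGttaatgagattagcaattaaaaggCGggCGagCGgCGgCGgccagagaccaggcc

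The next 4 belong to gene families examined as lists, the cytoplasmic ribosomal proteins (Rpl27a, Rpl13 and Rps13) and the C2H2 zinc-finger genes (Zfp768), whose starts held a knockout-only peak.
Rpl27a, chr7:109518945-109519194, plus strand: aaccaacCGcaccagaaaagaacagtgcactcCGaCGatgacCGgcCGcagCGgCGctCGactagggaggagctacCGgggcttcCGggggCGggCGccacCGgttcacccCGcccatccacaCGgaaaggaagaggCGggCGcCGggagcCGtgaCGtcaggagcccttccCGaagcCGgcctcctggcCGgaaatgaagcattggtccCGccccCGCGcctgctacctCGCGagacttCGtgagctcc
Rpl13, chr8:123102100-123102349, plus strand: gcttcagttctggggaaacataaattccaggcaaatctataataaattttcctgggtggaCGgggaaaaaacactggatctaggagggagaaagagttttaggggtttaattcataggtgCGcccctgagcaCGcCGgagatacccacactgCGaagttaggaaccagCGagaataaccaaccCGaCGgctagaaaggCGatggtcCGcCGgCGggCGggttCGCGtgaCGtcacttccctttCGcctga
Rps13, chr7:116334191-116334440, minus strand: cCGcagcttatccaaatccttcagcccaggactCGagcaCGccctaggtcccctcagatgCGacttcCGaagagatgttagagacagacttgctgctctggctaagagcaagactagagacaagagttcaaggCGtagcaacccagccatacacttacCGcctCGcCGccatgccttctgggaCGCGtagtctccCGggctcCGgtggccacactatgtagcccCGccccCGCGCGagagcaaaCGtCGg
Zfp768, chr7:127345315-127345564, minus strand: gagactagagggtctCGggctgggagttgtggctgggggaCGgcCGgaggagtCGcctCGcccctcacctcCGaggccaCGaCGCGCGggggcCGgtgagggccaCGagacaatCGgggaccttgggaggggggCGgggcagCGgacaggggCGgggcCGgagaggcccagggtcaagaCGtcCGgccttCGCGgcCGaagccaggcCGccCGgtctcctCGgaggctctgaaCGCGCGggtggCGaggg

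At shared peaks, the first 2 promoters by the number of lists were those of a predicted gene on the Y chromosome and of a gene near the distal end of chromosome 9.
Gm52481, chrY:90742479-90742728, plus strand: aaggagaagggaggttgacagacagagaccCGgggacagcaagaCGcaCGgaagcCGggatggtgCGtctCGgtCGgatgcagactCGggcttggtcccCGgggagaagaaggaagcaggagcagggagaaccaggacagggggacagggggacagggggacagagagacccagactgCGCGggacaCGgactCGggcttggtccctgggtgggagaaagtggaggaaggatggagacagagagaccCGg
2010315B03Rik, chr9:124312695-124312944, minus strand: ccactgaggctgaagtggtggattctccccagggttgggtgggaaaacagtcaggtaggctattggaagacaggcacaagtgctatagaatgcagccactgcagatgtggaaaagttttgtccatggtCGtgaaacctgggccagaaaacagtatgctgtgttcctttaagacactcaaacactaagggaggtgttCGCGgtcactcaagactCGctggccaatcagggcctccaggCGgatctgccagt

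The Rpl27a and Zfp768 promoters each hold 29 CpG in these 250 bases, Rps13 19 and Rpl13 17. The histone promoters hold fewer, with 2 in H4c2 and 10 in H4c17, and 2010315B03Rik holds 5. The promoters of the knockout-only class as a whole were rich in CpG. Over 300 bases (250 before and 50 after the start), the 242 genes with a knockout-only peak and a complete sequence had a median of 24.5 CpG (23 to 26, order-statistic 95% interval), against 13 (13 to 14) over all 17485 protein-coding genes. Their CpG observed/expected ratio had a median of 0.855 (0.826 to 0.893), against 0.576 for all genes, 0.529 (0.362 to 0.696) for 71 genes with a wild-type-only peak and 0.626 (0.293 to 0.728) for 24 genes with a shared peak. A ratio of at least 0.6 was found in 84.3% of the knockout-only genes, 43.7% of the wild-type-only genes and 48.3% of all genes. The letters GGGCGG (a GC box, the core bound by SP and KLF factors; both strands) occurred in 73.1% of the knockout-only genes (67.2 to 78.3) and 46.3% of all genes. CCAAT (bound by NF-Y) occurred in 40.1% and 39.0%, and CCGGAAG (bound by ETS factors) in 18.2% (13.8 to 23.5) and 11.9%. A GC box holds a CpG, so these counts are not separate from the CpG content, and a match to letters is not a site.

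Of the 17491 protein-coding genes with a start, 1.54% (269) had a SYCP3 peak of Prdm9KO within 1 kb and 0.549% (96) had one of the wild type. A knockout-only peak was near the start of 244 genes, 1.4% of all. The share of knockout-only peaks at gene starts was 48.2 points (Newcombe 95% interval 41.4 to 54.0) above the shared class and 54.0 points (48.9 to 59.0) above the wild-type-only class, of which 4.19% (70 peaks) lay at a start. Both differences were called. With the wild-type list cut to its widest peaks, as many as in Prdm9KO, they were 9.54 points (-5.10 to 21.6), not called, and 35.6 points (31.0 to 40.0). The classes were formed again from the cut list, so Prdm9KO peaks that met only dropped wild-type peaks counted as knockout-only. Of the Prdm9KO peaks 7.91% were then shared, against 37.7% with the full list. The difference from the shared class was 27.7 points with the wider 50% of each list. With histone starts not counted, the share in the knockout-only class was 55.0% (208 of 378), where the histone peaks stayed in the total. Of the 220 peaks at starts, 189 met 1 gene, 28 met 2, 2 met 3 and 1 met 5. The start itself lay inside the peak in 75% of cases (165), and the peak's centre was a median of 637 bp (468 to 733) from the nearest start. Peaks ran a median of 1076 bp upstream and 1587 bp downstream of it, with the centre downstream in 62.3% (55.7 to 68.4). At 5 kb upstream and 5 kb downstream, 4.09% and 2.27% of these peaks covered the position. The 70 wild-type-only peaks at starts covered those positions in 15.7% and 21.4% of cases.

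**Figure D2:**
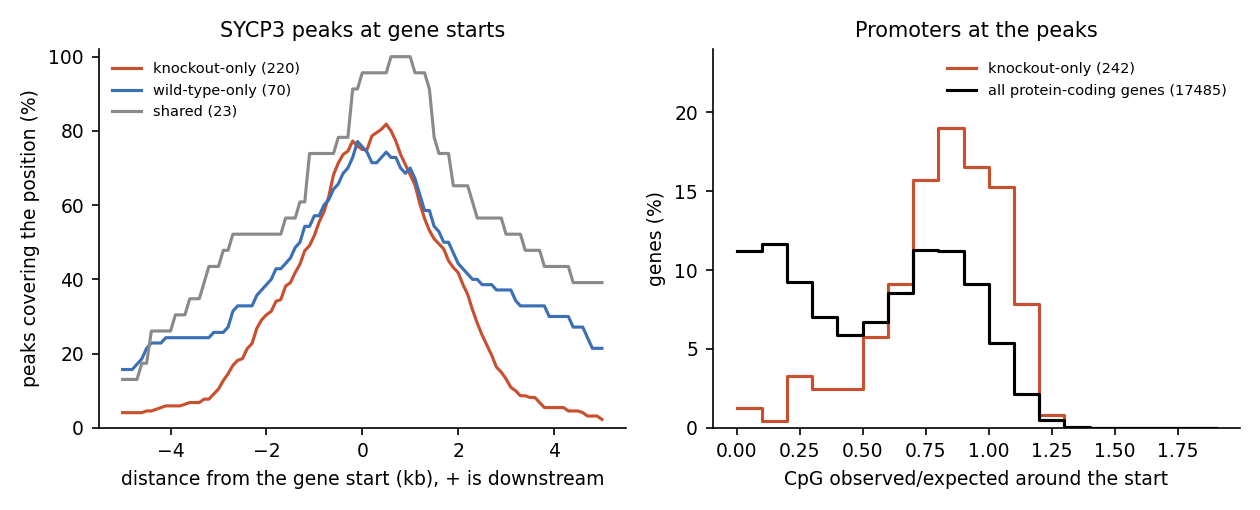
Left, share of the SYCP3 peaks at gene starts (%) that cover each position, by distance from the nearest start in kb, with downstream positive, for 220 knockout-only, 70 wild-type-only and 23 shared peaks. Right, CpG observed/expected ratio in the promoter window of genes with a knockout-only peak (242) and of all protein-coding genes (17485), in bins of 0.1 as % of genes, where the knockout-only genes lack most of the low-CpG part of the distribution.

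Some of these promoters were of gene pairs that start back to back. A second protein-coding gene started within 1 kb on the opposite strand, pointing away, for 21.7% (17.0 to 27.3; 53 of 244) of the genes with a knockout-only peak, for 8.48% (8.07 to 8.90) of all genes and for 3.13% (1.07 to 8.79; 3 of 96) of the genes with a wild-type SYCP3 peak. Without histone genes, which are often paired in this way, the share was 20.2% (15.4 to 25.9; 45 of 223). A peak at such a pair counts both genes, so the pairs were also counted once each. They then made up 12.4% (8.65 to 17.4; 27 of 218) of the promoters with a knockout-only peak, 4.39% (4.09 to 4.71) of all promoters and 2.11% (0.579 to 7.35; 2 of 95) of those with a wild-type SYCP3 peak. A pair still offers a longer stretch for a peak to meet than a single start.

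The replication-dependent histone genes, which are transcribed in clusters during DNA replication, held the densest group of knockout-only peaks among the lists examined. Like the other gene lists, this one was chosen with earlier results of these data known. Of 62 histone genes with a start, 23 (37.1%, 26.2 to 49.5) had a SYCP3 peak of Prdm9KO, of which 21 had a knockout-only peak, beside 1.54% of all genes. One gene, H4c4, had a wild-type SYCP3 peak. All 23 were among the 51 histone genes of chromosome 13, whose starts span 2.22 Mb, and none of the 8 on chromosome 3, 2 on chromosome 11 and 1 on chromosome 6 had one. By product, 9 of 13 histone H4 genes had a Prdm9KO peak, 6 of 15 H2B genes, 5 of 18 H2A genes, 2 of 6 genes of the linker histone H1 and 1 of 10 H3 genes. The genes share peaks and neighbourhood: 13 peaks accounted for the 23 genes, 12 of them knockout-only. The peak at chr13:22033943-22045583 (11641 bp) reached the starts of H2ac11, H2ac12, H2bc11, H2bc12 and H4c9. The peak at chr13:21745182-21755106 (9925 bp) reached H2ac15, H2bc15 and H4c12. The peak at chr13:23692729-23700104 (7376 bp) reached H1f6 and H4c3, and the peak at chr13:21811921-21812867 (947 bp), the narrowest, lay at H4c17. The shared peak at chr13:23580263-23585294 lay at H4c4 and H2bc6. Histone genes have near-identical copies, and how reads that fit several copies were counted is not given in the sources used here.

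The histone peaks recurred in other knockouts. Of the 13 peaks, 12 overlapped a SYCP3 peak in at least 2 of the other 4 knockouts, and the exception was the peak at H4c11. Recurrence was common in the whole class too. Of all 378 knockout-only peaks, 22.5% were in 2 of these 4 lists, 31.5% in 3 and 4.50% in 4. SYCP3 peaks lay at 29 of the 62 histone genes in Spo11KO (46.8%, beside 6.55% of all genes), 14 in Mei4KO (22.6%, beside 3.37%), 30 in Iho1KO (48.4%, beside 18.9%) and 16 in Hormad1KO (25.8%, beside 0.6%). HORMAD1 and IHO1 had histone peaks in the wild type too. HORMAD1 peaks lay at 19 histone genes in the wild type (30.6%, 20.6 to 43.0), beside 0.943% of all genes. In Prdm9KO they lay at 6 (9.68%, 4.51 to 19.5), beside 0.663%. IHO1 peaks lay at 16 in the wild type (25.8%, 16.6 to 37.9), beside 0.680%, and at 2 in Prdm9KO (3.23%, 0.889 to 11.02), beside 0.217%. Neither MEI4 list held one, beside 0.314% and 0.0915% of all genes, shares at which a count of 0 of 62 is not a result. Of the 13 SYCP3 peaks, 4 lay at a HORMAD1 peak of Prdm9KO, 2 at an IHO1 peak of Prdm9KO, 3 at a DMC1 hotspot and 3 at a CTCF peak. Over all 607 SYCP3 peaks of Prdm9KO the shares were 35.1%, 24.9%, 26.4% and 30.5% in the same order. Counts this near to those shares are not a result about histone peaks.

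**Figure D3:**
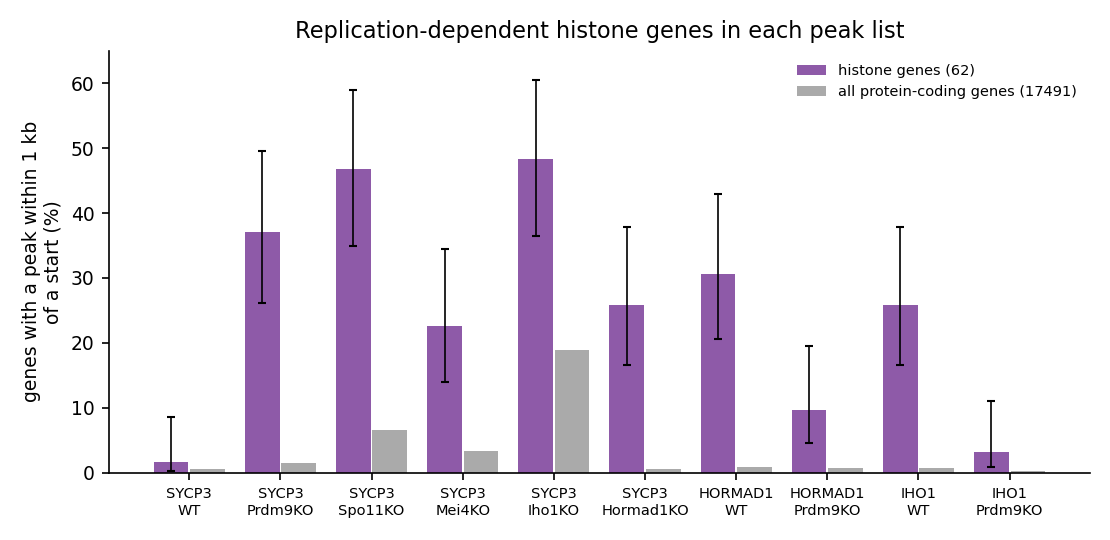
Share of the 62 replication-dependent histone genes (purple bars, with Wilson 95% intervals) and of all 17491 protein-coding genes (grey bars) with a peak within 1 kb of a start (vertical axis, %) in each list. The SYCP3 bar of the wild type is at 1.61% and that of Prdm9KO at 37.1%, while the wild-type HORMAD1 and IHO1 bars are at 30.6% and 25.8%.

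The other gene lists gave few or no peaks. Of the 62 ribosomal protein genes with a start, 3 had a Prdm9KO peak (4.84%, 1.66 to 13.3), beside 1.54% of all genes. All 3 peaks were knockout-only: Rpl27a (chr7:109518360-109521306, 2947 bp), Rps13 (chr7:116331987-116335591, 3605 bp) and Rpl13 (chr8:123099235-123103936, 4702 bp). The Rpl27a start also had a SYCP3 peak in Spo11KO, Mei4KO and Iho1KO. The Rps13 start had one in Spo11KO, Iho1KO and Hormad1KO, and the Rpl13 start in Iho1KO. Of 331 zinc-finger genes 1 had a Prdm9KO peak (0.302%, 0.0534 to 1.69), an interval that includes the 1.54% of all genes. This was Zfp768 (chr7:127345019-127346549, 1531 bp), and its start had SYCP3 peaks in Spo11KO, Mei4KO and Iho1KO. Of 944 olfactory receptor genes, which are silent in most tissues, none had a Prdm9KO peak. A count of 0 there has a Wilson upper bound of 0.405%. No start among 15 genes of the meiotic axis and cohesin (Sycp3 and Hormad1 among them), 22 of break formation and repair, 10 of meiotic entry, 9 of spermatogonia, 10 of pachytene cells and spermatids, 7 of Sertoli cells and 6 of Leydig and interstitial cells had a Prdm9KO peak. With 1.54% of all genes as background, a count of 0 in lists this short is not a result about them. In Spo11KO, SYCP3 peaks lay at 6 of the 15 axis genes and 6 of the 10 meiotic entry genes, beside 6.55% of all genes. They lay at 2 of the 22 break genes and 1 of the 9 spermatogonia genes there. For axis and meiotic entry genes the counts were 5 and 4 in Iho1KO, beside 18.9% of all genes. In Mei4KO they were 4 and 2, beside 3.37%, and in Hormad1KO 0 and 0.

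Most knockout-only peaks were found again in mice that have PRDM9 but lack another protein of break formation or of the axis. Of the 378 peaks, 73.8% overlapped a SYCP3 peak of Iho1KO, 56.9% of Spo11KO, 40.2% of Mei4KO and 14.8% of Hormad1KO, and 86.8% (83.0 to 89.8; 328) of at least 1 of these. The same shares were 26.0%, 32.4%, 10.5% and 21.1% of the wild-type-only peaks, of which 49.1% (46.7 to 51.5) were in at least 1. The shared peaks recurred most, in 84.3%, 83.4%, 59.8% and 73.4% of cases, and 97.8% were in at least 1. The 4 lists differ in length (5380, 2369, 1125 and 823 peaks in the same order), the first 2 rest on 1 sample each, and all carry the same subtracted Sycp3KO control, so the overlaps are not independent of each other. The share of knockout-only peaks minus that of shared peaks was -10.5 points in Iho1KO (-16.7 to -3.74), -26.5 points in Spo11KO, -19.6 points in Mei4KO and -58.5 points in Hormad1KO, and all 4 differences were called. Against the wild-type-only class it was 47.8 points (42.6 to 52.4) in Iho1KO, 29.7 points (24.7 to 34.9) in Mei4KO, 24.5 points (19.0 to 29.9) in Spo11KO and -6.25 points (-10.1 to -1.89) in Hormad1KO. The sizes of the differences from the shared class depended on the peaks taken. In Iho1KO the difference was -23.7 points with an overlap of at least 50%, -22.4 when 1 kb around its centre stood for each peak, and -23.9 for peaks not at gene starts. With the widest wild-type peaks alone, as many as Prdm9KO has, the differences were no longer called in Iho1KO (-6.05 points) and Hormad1KO (-7.44), turned to 6.45 points in Mei4KO and were -15.6 in Spo11KO. With the wider 50% of each list they were -0.715 points in Mei4KO, not called, and -29.2 in Hormad1KO. Off hotspots the Spo11KO difference was -14.5 points, and away from chromosome ends the Mei4KO difference was -33.4. At gene level, 80.3% of the 244 genes with a knockout-only peak had a SYCP3 peak at a start in Iho1KO, 66.4% in Spo11KO, 44.3% in Mei4KO and 13.1% in Hormad1KO, beside 18.9%, 6.55%, 3.37% and 0.6% of all genes. Those genes make up 5.94%, 14.1%, 18.3% and 30.5% of the genes of each list. Without histone genes the Hormad1KO share was 8.52% (5.52 to 12.9). Within the class, peaks at gene starts were found more often than the other knockout-only peaks in Iho1KO (83.6% against 60.1%, 23.5 points, 14.4 to 32.4) and in Spo11KO (62.3% against 49.4%, 12.9 points, 2.77 to 22.7). In Mei4KO (6.02 points, -4.004 to 15.7) and Hormad1KO (-7.17 points, -14.9 to 0.110) the interval included 0.

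**Figure D4:**
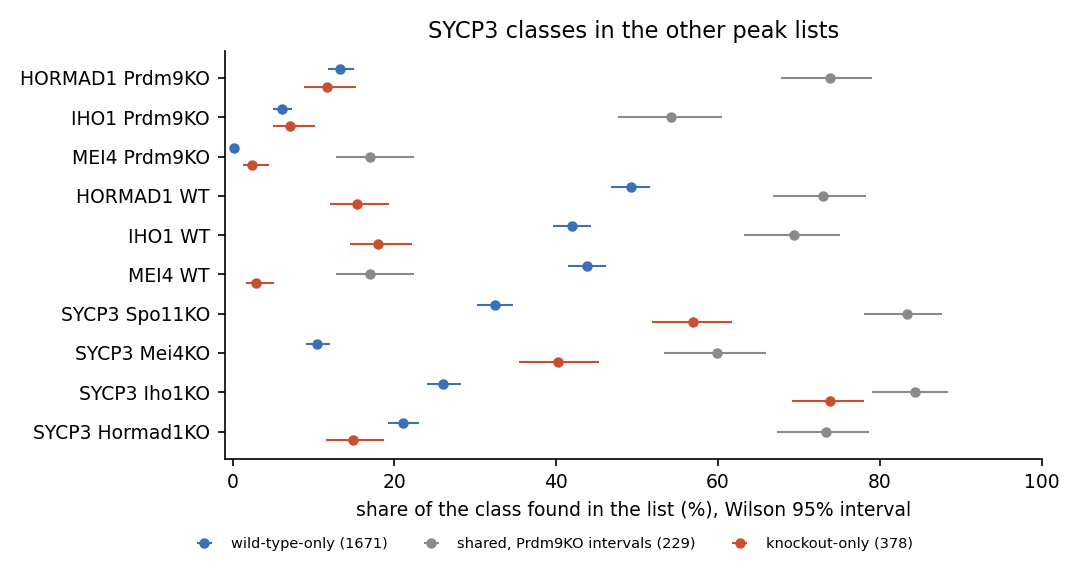
Share of each SYCP3 class (horizontal axis, %, points with Wilson 95% intervals) that overlaps a peak of the list on the vertical axis. Shared peaks lie highest in each list except MEI4 of the wild type, and knockout-only peaks are above wild-type-only peaks in the SYCP3 lists of Spo11KO, Mei4KO and Iho1KO and below them in Hormad1KO.

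The knockout-only peaks were largely without HORMAD1, IHO1 or MEI4 peaks. In Prdm9KO, where 1009 HORMAD1, 378 IHO1 and 80 MEI4 peaks were deposited, 11.6% (8.79 to 15.3) of the knockout-only SYCP3 peaks overlapped a HORMAD1 peak, 7.14% (4.96 to 10.2) an IHO1 peak and 2.38% (1.26 to 4.46) a MEI4 peak. The shared peaks did so in 73.8%, 54.1% and 17.0% of cases, and the differences were -62.2 points (-68.2 to -55.1) for HORMAD1 and -47.0 points (-53.7 to -39.9) for IHO1, both called. With the widest wild-type peaks, as many as in Prdm9KO, they were -27.5 and -25.0 points, still called. The wild-type-only positions, which have no SYCP3 peak in Prdm9KO, overlapped a Prdm9KO HORMAD1 peak in 13.3% of cases and an IHO1 peak in 6.04%. These shares did not differ from the knockout-only class beyond counting error, with differences of -1.65 points (-4.97 to 2.30) and 1.10 points (-1.42 to 4.32). Both depended on the peaks taken: off hotspots they were -23.3 and -7.82 points, and with the wider 50% of each SYCP3 list 16.3 and 13.5 points, all called. With the widest wild-type peaks and the classes formed again from them, they were 30.9 and 21.6 points, called too. Read from the other side, 21.5% of the HORMAD1 peaks and 39.7% of the IHO1 peaks of Prdm9KO held a SYCP3 peak of Prdm9KO. In the wild type, 15.3% of the knockout-only positions lay at a HORMAD1 peak, 17.99% at an IHO1 peak and 2.91% at a MEI4 peak, against 49.2%, 42.0% and 43.8% of the wild-type-only peaks. At gene starts, knockout-only peaks met wild-type IHO1 peaks less often than elsewhere, at 11.8% and 26.6% (-14.8 points, -23.0 to -6.78).

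HORMAD1, IHO1 and MEI4 peaks that appear only in Prdm9KO were of another kind. By the same overlap rule, 60.7% of the HORMAD1 peaks and 66.1% of the IHO1 peaks of Prdm9KO were found in the wild type, which left 397 and 128 peaks in Prdm9KO only. Of these, 14.4% (11.2 to 18.1) of the HORMAD1 peaks and 8.59% (4.87 to 14.7) of the IHO1 peaks lay at a gene start. The SYCP3 share was 43.8 points (37.5 to 49.6) above the HORMAD1 share and 49.6 points (41.7 to 55.7) above the IHO1 share. The 35 MEI4 peaks lay at gene starts in 28.6% of cases (16.3 to 45.1), 29.6 points (12.4 to 42.8) under SYCP3. At CTCF peaks the order was turned, with 60.7% of the HORMAD1 peaks, 58.6% of the IHO1 peaks, 34.3% (20.8 to 50.8; 12 of 35) of the MEI4 peaks and 19.6% of the SYCP3 peaks. The SYCP3 share minus that of HORMAD1 was -41.1 points (-47.1 to -34.6), and minus that of MEI4 -14.7 points (-31.7 to -0.585). At DMC1 hotspots the shares were 6.55% for HORMAD1, 5.47% for IHO1, 8.57% (2.96 to 22.4, 3 of 35) for MEI4 and 38.9% for SYCP3.

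The hotspots under knockout-only peaks were of middle rank in the wild type and seldom among the strongest. The authors' DMC1 value, whose unit is not stated, ranks hotspots within their list, and its median over all 13808 hotspots was 129. Of the wild-type hotspots, 7.47% held a SYCP3 peak of the wild type and 1.09% one of Prdm9KO. The 1131 wild-type-only peaks at a hotspot had a median value of 2578.5 (2446.5 to 2680), at percentile 95.8 of the hotspot list. The 147 knockout-only peaks at a hotspot had a median of 108 (95 to 123), at percentile 45.1, and reached at most 985. In the shared class 13 Prdm9KO intervals were at a hotspot, with a median of 107 (55.5 to 229). When hotspots were split into 4 equal bins by value, 97.3% of the wild-type-only hotspot peaks were in the highest bin and 2.72% (1.06 to 6.79; 4 of 147) of the knockout-only ones. The highest bin held 3452 hotspots, of which 28.5% had a wild-type-only peak and 0.116% a knockout-only peak. Hormad1KO, whose DMC1 list is shorter (5002 hotspots), gave 64.5% of the wild-type-only and 1.59% of the knockout-only peaks at a hotspot. The share at wild-type hotspots differed between all classes, with knockout-only peaks 33.2 points (27.1 to 38.7) above shared peaks and 28.8 points below wild-type-only peaks (interval of the difference -34.1 to -23.3). With the widest wild-type peaks, as many as in Prdm9KO, the first of these was 8.26 points (-5.39 to 17.6), not called, and the second -61.5 points (-65.8 to -56.7). With the 50% of hotspots of higher DMC1 value they were 13.9 and -50.9 points, both called, and with the wider 50% of each list the second was -45.0 points.

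**Figure D5:**
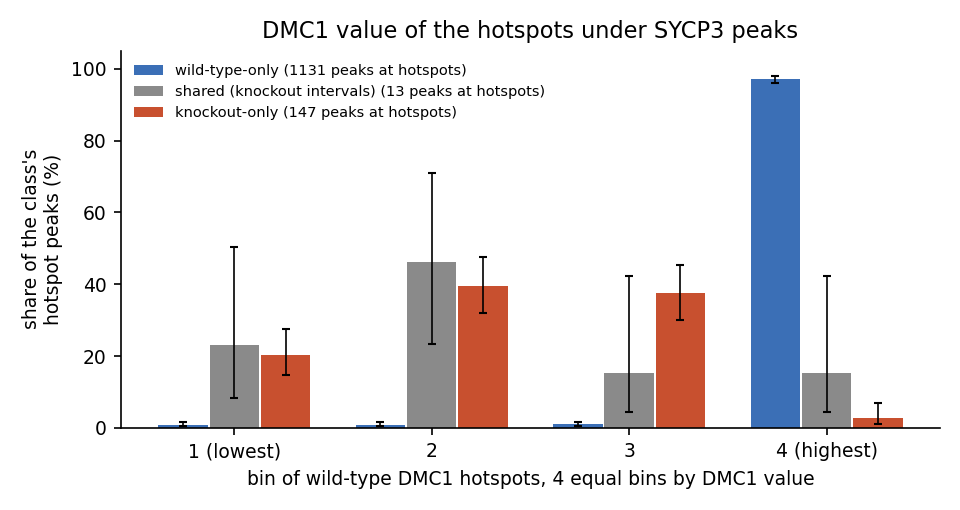
Share of the SYCP3 peaks at a wild-type DMC1 hotspot (vertical axis, %, with Wilson 95% intervals) in each of 4 equal bins of hotspots by DMC1 value, by class. Wild-type-only peaks sit in bin 4 (97.3%), and knockout-only peaks in bins 1 to 3 (20.4%, 39.5% and 37.4%).

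Hotspots of low DMC1 value lay at gene starts more often than those of high value: 17.2% of the lowest bin of hotspots did so, 11.8% of the next, 4.49% of the third and 2.20% of the highest. Of the 147 knockout-only peaks at hotspots, 94 were also at a gene start. The median DMC1 value was 107.25 (90.5 to 120.5) in those 94 and 110 (79.5 to 172.5) in the other 53. Within the class, 42.7% of the peaks at starts and 33.5% of the others lay at a hotspot, and the interval of the difference of 9.18 points ran from -0.783 to 18.7. Peak centres of knockout-only peaks lay a median of 1084.5 bp (756 to 1304.5) from the centre of the hotspot they overlapped, against 456.5 bp (376.5 to 546) for wild-type-only peaks.

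The 5 strongest hotspots with a wild-type-only SYCP3 peak, a class defined by having no SYCP3 peak in Prdm9KO, are given as examples. The hotspot with the highest DMC1 value of the list, 20822.5, lay under a SYCP3 peak of 8850 bp at chr11:89607577-89616426 in Ankfn1. The next, 20513.5, lay under a peak of 8205 bp at chr2:38133057-38141261 in Dennd1a, which encodes a regulator of membrane traffic. The third, 18961, lay under a peak of 6373 bp at chr1:68485783-68492155 in Erbb4, a receptor tyrosine kinase gene. All 3 also had HORMAD1, IHO1 and MEI4 peaks in the wild type, and the Prdm9KO lists of these 3 proteins held no peak there. The fourth and the fifth, at chr10:92674652-92684712 and chr1:67958395-67965615, met no gene in the table and had no HORMAD1, IHO1 or MEI4 peak in the Prdm9KO lists either.

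Shared peaks lay at CTCF peaks more often than the other classes over all peaks, but off hotspots they did not exceed the wild-type-only class. Of the wild-type CTCF peaks, 1.51% held a wild-type and 0.575% a Prdm9KO SYCP3 peak. The share of SYCP3 peaks at a CTCF peak was 22.9% (20.9 to 24.9) in the wild-type-only class and 19.6% (15.9 to 23.9) in the knockout-only class, which did not differ beyond counting error (-3.28 points, -7.51 to 1.44). Knockout-only peaks were 28.9 points below shared peaks (interval of the difference -36.3 to -21.2), a called difference that was -7.03 points (-18.7 to 3.86) with the wider 50% of each list and 15.0 points (1.56 to 23.9) with the widest wild-type peaks. Among peaks away from hotspots, the knockout-only class was 31.5 points below the wild-type-only class (-37.9 to -24.4), and 53.1% of the 540 wild-type-only peaks off hotspots lay at a CTCF peak. Of the 224 shared wild-type intervals off hotspots 49.1% (42.6 to 55.6) did so, and wild-type-only minus shared was 4.04 points (-3.71 to 11.7). Over all peaks that difference was -24.6 points (-31.2 to -18.1), called, and -8.15 points (-21.3 to 0.691) with the widest wild-type peaks. The authors' CTCF score had a median of 4.33 (3.79 to 4.75) under shared peaks, 3.44 (3.24 to 3.61) under wild-type-only peaks and 1.99 (1.70 to 2.48) under knockout-only peaks, beside 1.92 over all 32676 CTCF peaks. With the widest wild-type peaks and the classes formed again from them, the order of the wild-type-only and knockout-only medians was turned. They were 1.93 (1.51 to 2.18) and 3.38, with intervals that did not overlap. The shared median was 1.87 (0.589 to 7.7) in Prdm9KO intervals and 1.98 (0.989 to 5.33) in wild-type intervals. These intervals held both other medians, so the place of the shared class was not resolved. The 111 shared Prdm9KO peaks at CTCF peaks overlapped HORMAD1 peaks of Prdm9KO in 82.9% of cases and IHO1 peaks in 57.7%.

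Shared peaks were concentrated near the distal ends of a few chromosomes, mainly 9, X and Y. The highest coordinate found in any of the lists stood for the end of each chromosome. Within 1 Mb of the highest coordinate on the chromosome lay 24.9% (19.7 to 30.9; 57 of 229) of the shared Prdm9KO intervals, 5.29% (3.45 to 8.03; 20) of the knockout-only peaks and 1.74% (1.21 to 2.48; 29) of the wild-type-only peaks. Distal chromosome 9 alone held 15.7% (36) of the shared intervals and the ends of X and Y 6.55% (15), which is most of the 57. The same places held 2.38% and 1.32% of the knockout-only peaks, and 0.299% and 0.120% of the wild-type-only peaks. With peaks within 1 Mb of the highest coordinate left out on every chromosome, 9.48% of the wild-type peaks were found in Prdm9KO. Of the Prdm9KO peaks 32.5% were then found in the wild type. The shared peak at chrX:169993087-169995657 was found in all 21 lists of MEI4, IHO1, HORMAD1 and SYCP3 and had a CTCF score of 11.2. The peaks at chrX:170003742-170006307 and chr9:124256357-124257844 were in 20 of them, the latter with a CTCF score of 31.4. The peak at chrX:169986017-169988798 in Mid1, a ubiquitin ligase gene that reaches into the pseudoautosomal region, and the peak at chrY:90770410-90771255 were in 19.

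The 6 knockout-only sites that led the ranking over 7 lists, each found in 6 of them, included a pseudoautosomal site. Asmt, which encodes the last enzyme of melatonin synthesis, lies in the pseudoautosomal region, and its start held a knockout-only SYCP3 peak at chrX:170672846-170677619. That peak overlapped HORMAD1, IHO1 and MEI4 peaks of Prdm9KO and SYCP3 peaks in 3 of the other 4 knockouts. The peak at Rsad1 (chr11:94547359-94550136) was in all 4 and overlapped HORMAD1 and IHO1 peaks of Prdm9KO. The peaks at H4c2 (chr13:23755992-23758267) and H4c17 did the same. Distal chromosome 9 held the broad ones. The widest knockout-only peak covered 30488 bp at chr9:123753285-123783772, with the start of the chemokine receptor gene Ccr9. Peaks of 16022 bp at Slc6a20a (chr9:123672929-123688950) and 15041 bp at Ccr3 (chr9:124009132-124024172), another chemokine receptor gene, were among the 5 widest, and both overlapped HORMAD1, IHO1 and MEI4 peaks of Prdm9KO. The Ccr3 promoter holds 0 CpG in its 250 bases before the start. Outside chromosome 9, the widest were 17431 bp at Npas1 (chr7:16476052-16493482), which encodes a neuronal transcription factor, and 15408 bp at chr4:155960398-155975805 over C1qtnf12. The latter overlapped a hotspot with a DMC1 value of 345.

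Median widths differed little between the classes, but the upper quartile was higher in the wild-type-only class. The median was 2894 bp (2692 to 3191) in the wild-type-only class, 2656.5 bp (2481 to 2859) in the knockout-only class and 2752 bp (2485 to 3011) in the shared Prdm9KO intervals. The quartiles were 1602 and 5084 bp, 1819 and 4270 bp, and 1805 and 4274 bp in the same order. Knockout-only peaks at gene starts had a median of 2590.5 bp and the others 2811 bp. Where 1 wild-type peak met 1 Prdm9KO peak (220 pairs), the Prdm9KO peak was wider in 153 pairs and narrower in 67, with a median ratio of 1.06 (quartiles 0.972 and 1.23). The overlap rule left few peaks near its limit. The smallest overlap of a pair was 504 bp, and all 240 pairs shared at least 50% of the shorter peak. The nearest wild-type peak lay within 1 kb of 10 knockout-only peaks and within 5 kb of 22, with the smallest gap at 395 bp and a median gap of 261472 bp.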

How the data were processed

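SYCP3 peaks of synchronised testes were compared between the wild type and Prdm9KO. Bowtie2, MACS2 and the build mm10 are named in the submitters' processing notes, without versions. The authors state in the series' design text that the knockout of each precipitated protein was subtracted. Whether replicates were pooled and the peak thresholds are not given in the sources used here. The deposited protein lists hold only the bounds of each peak. The authors also deposited a DMC1 signal per hotspot, of unstated unit, and a CTCF score per peak, and both were used to rank sites within their list. Start and end coordinates were used as deposited. Depth per sample is unknown.

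Overlap was at least 1 bp. Gene starts came from a RefSeq promoter table (GRCm38.p6) with strand for 17491 of 21896 protein-coding genes (79.9%) and none on chromosome 18, where 13 Prdm9KO and 47 wild-type SYCP3 peaks lie, and were widened by 1 kb. Histone genes were matched through their older symbols in the gene table. Promoters with undetermined bases were left out, Asmt among them. Wilson, Newcombe and order-statistic 95% intervals were computed in Python 3.11.15 with NumPy 2.4.6, SciPy 1.17.1 and pandas 2.3.3, after tests on simulated data. Members and gene lists were chosen with earlier results of these data known. Named sites were the 5 wild-type-only peaks with the highest DMC1 value, the 5 shared peaks in most of 21 protein lists, the 10 knockout-only peaks in most of 7 lists (the other 4 SYCP3 knockouts, and HORMAD1, IHO1 and MEI4 of Prdm9KO), the 5 widest, and listed genes with a Prdm9KO peak. Alternatives changed the overlap, the peak window, the chromosomes, the part of the lists and the gene positions.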

Additional observations from a re-analysis of the deposited data

How the results depend on the processing

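Each of 40 results was recomputed under the settings that apply to it, out of 11 listed with the design and 2 (either end of each gene, and peaks over 1 Mb from the highest coordinate) chosen after seeing the data, which gave 274 values. Of 202 differences between classes, 175 kept their direction and their side of the threshold, 10 lost the call, 8 gained one and 9 changed sign. The gene-start difference between knockout-only and wild-type-only peaks was called under each setting. The 2 settings that cut the lists by width gave most of the values that moved or changed their call. Leaving out a replicate could not be done with 1 list per group. No paired analysis was possible because each group has 1 deposited list, which carries no replicate number.

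With the widest wild-type peaks, as many as in the Prdm9KO list, 8.07% of wild-type and 7.91% of Prdm9KO peaks were found in the other list. The classes were formed again from the cut list, so Prdm9KO peaks that met only dropped wild-type peaks counted as knockout-only. Knockout-only minus shared became 8.26 points at hotspots, 15.0 at CTCF peaks and 9.54 at gene starts, and 6.45, -6.05 and -7.44 in the Mei4KO, Iho1KO and Hormad1KO SYCP3 lists. Wild-type-only minus shared became -8.15 at CTCF peaks, -6.84 at wild-type HORMAD1 peaks and -6.42 at wild-type IHO1 peaks. Knockout-only minus wild-type-only became 21.4 at CTCF peaks, 30.9 at Prdm9KO HORMAD1 peaks and 21.6 at Prdm9KO IHO1 peaks. The median DMC1 value of wild-type-only peaks was 3461.5, and median CTCF scores were 1.93 (wild-type-only), 1.98 and 1.87 (shared) and 3.38 (knockout-only).

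With the wider 50% of each list, 9.73% and 28.9% of peaks were found in the other list, and the classes were formed again here too. Knockout-only minus wild-type-only was 12.9 points at CTCF peaks, 16.3 at Prdm9KO HORMAD1 and 13.5 at Prdm9KO IHO1 peaks. Knockout-only minus shared was -7.03 at CTCF peaks, -0.715 in Mei4KO and -11.0 in Iho1KO. The median DMC1 value of wild-type-only peaks was 2924.25, and median CTCF scores were 2.28, 3.32 and 3.33 (shared) and 2.90 (knockout-only).

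Knockout-only minus wild-type-only at CTCF peaks was -5.22 with an overlap of 50% (where the median DMC1 value of wild-type-only peaks was 2742.25), -4.67 with the 1 kb window, -8.36 with the higher-scored CTCF peaks and -31.5 off hotspots. Off hotspots, it was -23.3 at Prdm9KO HORMAD1 and -7.82 at Prdm9KO IHO1 peaks, and wild-type-only minus shared was 4.04 at CTCF peaks. Away from chromosome ends, 9.48% and 32.5% of peaks were found in the other list, and knockout-only minus wild-type-only was -3.998 at Prdm9KO HORMAD1 and -1.44 at Prdm9KO IHO1 peaks. The cause of these changes was not tested. Unknown depth limits what an absent peak can show.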
